A study of Mus musculus with 14 samples.

Results

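The lysosome and vacuolar ATPase genes are 41 named mouse genes for lysosomal enzymes, membrane proteins, the proton pump and the TFEB factors that control them. They were chosen by name, and each was read from the brightest of its probesets, judged by the mean over the 14 arrays. A probeset is a set of short probes made to match the RNA of 1 gene. In this way 37 of the 41 were read, of 12393 genes and 22626 probesets in all. The other 4, Tfe3, Cd63, Arsb and Atp6v0c, have no probeset named for them alone in the annotation used here and were not analysed.

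RNA of B16-F10 cells, a melanoma cell line of C57BL/6J mice, was measured on Affymetrix mouse expression arrays to find genes affected by lipofection. All cells were grown in RPMI medium with 10% fetal bovine serum at 37°C, and no plasmid DNA was given to any group. The 5 control arrays hold RNA of untreated cells. For the 3 Lipofectamine arrays, cells were kept for 3 h in Opti-MEM with Lipofectamine, a cationic liposome used to carry DNA into cells, and then for 30 min in the serum medium, so that the liposomes and the change of medium cannot be told apart. For the 3 heat shock arrays, cells were kept for 1 h at 42.5°C and allowed 30 min of recovery. For the 3 benzyl alcohol arrays, cells were given 40 mM benzyl alcohol, which makes membranes more fluid, for 1 h at 37°C. Their recovery is 3 h in the treatment protocol and 30 min in the description of the whole series, so that agent and time after treatment cannot be told apart where benzyl alcohol is compared with the other treatments. Arrays of a group are labelled as biological replicates of 1 cell line, and separate cultures or days are not described, so that p-values measure the spread between these arrays, which may be partly technical.

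Lysosomes are acidic compartments in which proteases, glycosidases, sulfatases and lipases break down material that is taken up from outside or delivered by autophagy. Their acidity comes from the vacuolar ATPase (V-ATPase), a proton pump whose V1 part hydrolyses ATP in the cytosol and whose V0 part carries protons across the membrane. TFEB and its relatives TFE3 and MITF switch on many lysosomal genes through E-box sequences in their promoters. In pigment cells such as melanoma cells, the melanosome is built from the same endosomal pathway and shares several of these proteins.

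Values are log2 signals after RMA, the normalization applied by the authors, and differences are differences of log2 signals. Array medians lay between 7.03 and 7.12, and correlations between arrays between 0.975 and 0.997. Apart from a rough look at cell type markers, signals of different genes are not compared, since probesets differ in brightness for the same amount of RNA. The labelled cell type was borne out by most of its markers, of which 9 of 10 were read with a mean of 11.2 to 12.0 in each array. Dct and Pmel lay at 13.01 to 13.31 and 13.00 to 13.33. The mean of 9 macrophage markers lay between 5.85 and 6.28, that of 8 fibroblast markers between 5.64 and 6.01 and that of 6 epithelial markers between 5.40 and 5.85. Of their defining genes, Ptprc lay at 4.20 to 5.12, Itgam at 4.01 to 4.61 and Cdh1 at 3.24 to 3.69, where the lowest signal in the table was 2.67, and Col1a1 and Col3a1 at 5.61 to 6.06 and 4.04 to 4.61. Others of these lists lay around the array medians or above them, with Csf1r at 7.73 to 8.58, Adgre1 at 6.73 to 7.37, Col1a2 at 6.90 to 7.73 and Krt8 at 6.83 to 7.61. Against the controls, 2 of the 9 pigment cell markers fell with heat shock, Sox10 by 0.98 (SE 0.196, limma adjusted p = 0.0135) and Tyr by 0.39 (SE 0.102, limma adjusted p = 0.0415), and all 9 differences lay below 0, with a median of -0.30. With Lipofectamine 8 of the 9 lay below 0 (median -0.22) and with benzyl alcohol 5 (median -0.05), and 0 passed in either. An unadjusted limma p under 0.05 was found for 4 and 1 of the 9, beside 2343 and 1643 of all 12393 genes. The part of these shifts in the differences of the 37 genes was not tested.

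Against all 5 control arrays, none of the 37 genes passed the test (limma, Benjamini-Hochberg adjusted p under 0.05 over all probesets) with Lipofectamine, heat shock or benzyl alcohol. The share of all genes that passed was 5.02% with Lipofectamine, 5.04% with heat shock and 1.42% with benzyl alcohol. Without adjustment, 6, 9 and 8 of the 37 had a limma p under 0.05, beside 2343, 2693 and 1643 of all 12393 genes. The smallest limma adjusted p of the 37 was 0.0826, 0.137 and 0.173. The median difference of the 37 genes was 0.06 with Lipofectamine, 0.11 with heat shock and -0.11 with benzyl alcohol, beside -0.02, 0.04 and 0.02 over all genes. In these bulk samples, less RNA per cell and fewer cells with that RNA cannot be told apart. The 3 comparisons share the same control arrays.

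Lipofectamine and heat shock were also compared with each other, where 0 of the 37 genes passed, beside 4.18% of all genes. Beside 2256 of all 12393 genes, 2 of the 37 had an unadjusted limma p under 0.05, Atp6v1a and Atp6v1b2. Their differences, Lipofectamine minus heat shock, were 0.36 (SE 0.157) and 0.36 (SE 0.121), with limma adjusted p of 0.219 and 0.108. The median difference was -0.03, beside -0.07 over all genes.

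**Figure D1:**
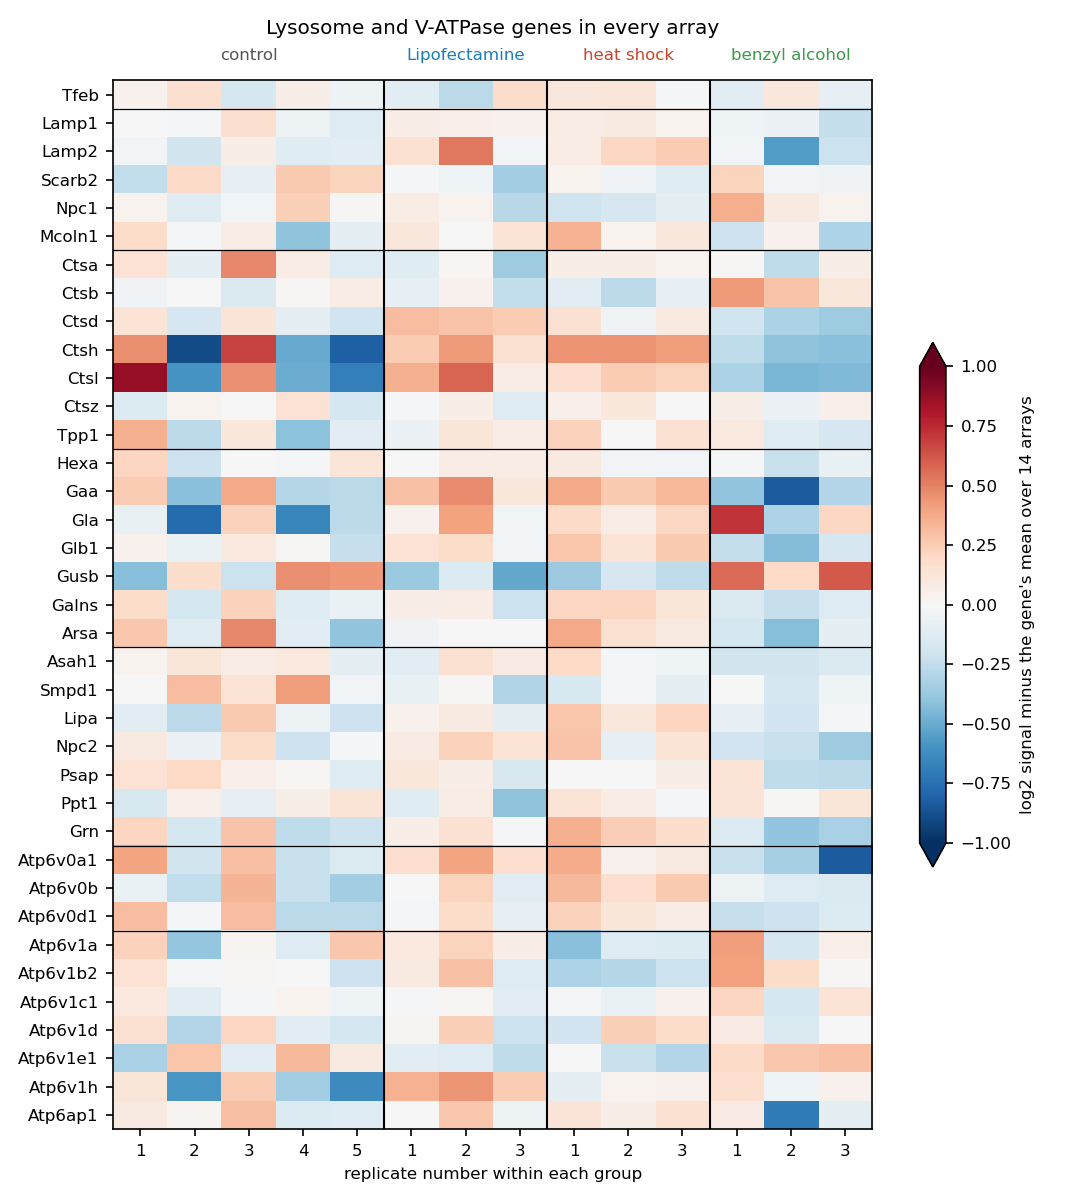
Signal of each of the 37 genes read (lines, grouped by role) in each of the 14 arrays (columns, by group and replicate number), as log2 signal minus the gene's mean over all arrays, with colours ending at -1 and 1. Control arrays 1 and 3 resemble the heat shock arrays at Ctsh, Ctsl, Gaa and Gusb, while control arrays 2, 4 and 5 and the benzyl alcohol arrays lie on the other side of the mean.

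The largest differences that did not pass belonged to genes on which the control arrays themselves were split. Atp6v1h, the V1 subunit H, had 9.20, 8.50, 9.33, 8.73 and 8.44 in control arrays 1 to 5 and 9.43, 9.52 and 9.33 with Lipofectamine. Its difference was 0.58 (SE 0.180, limma adjusted p = 0.0826). The Lipofectamine arrays lay at the level of control array 3 or above it, while control arrays 2, 4 and 5 were well below.

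Ctsh, the cysteine protease cathepsin H, had 6.82, 5.47, 7.04, 5.86 and 5.55 in the controls. Its values were 6.62, 6.79 and 6.51 with Lipofectamine and 6.81, 6.81 and 6.78 with heat shock, with differences of 0.49 (SE 0.304) and 0.65 (SE 0.304) and limma adjusted p of 0.445 and 0.220. All 6 of these treated arrays lay inside the range of the controls, because control arrays 1 and 3 were as high. Gla, the alpha-galactosidase that removes galactose from glycolipids, differed by 0.46 (SE 0.193, limma adjusted p = 0.171) with heat shock. With benzyl alcohol Gla differed by 0.51 (SE 0.225, limma adjusted p = 0.328) and its 3 arrays spread from 7.34 to 8.37.

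The split of the controls reached most of these genes. Control arrays 1 and 3 both lay above control arrays 2, 4 and 5 at 22 of the 37 genes, which is 59.5%, beside 19.5% of all genes, and both below at 5, which is 13.5%, beside 20.9% of all genes. Nothing in the labels sets these arrays apart, and these shares are descriptions without a test. The largest gaps between the mean of arrays 1 and 3 and that of the others were those of 2 cysteine proteases, 1.31 for Ctsh and 1.25 for Ctsl. Atp6v1h followed with 0.71, Gaa and Gla with 0.64 each and the sulfatase gene Arsa with 0.59. Among the V-ATPase genes, 7 of 10 lay above and 1, Atp6v1e1, lower, with a gap of -0.45. Gusb was lower too, with a gap of -0.68. Scarb2, Ctsb and Ppt1 were the other genes that lay below.

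Benzyl alcohol was then compared with each of the other treatments in the fit of all 14 arrays. Against heat shock 7 of the 37 genes passed the limma test, which is 18.9%, beside 7.39% of all genes. Ctsb, Gusb and Atp6v1b2 were higher with benzyl alcohol, where 5.35% of all genes were higher, and Gaa, Glb1, Grn and Atp6v0a1 were lower, where 2.04% of all genes were lower. Against Lipofectamine 8 passed, which is 21.6%, beside 11.9% of all genes. Ctsb and Gusb were higher, where 7.12% of all genes were higher, and Lamp2, Ctsd, Gaa, Glb1, Npc2 and Atp6v0a1 were lower, where 4.82% of all genes were lower. Ctsb, Gaa, Glb1, Gusb and Atp6v0a1 passed in both, each with the same sign, but both comparisons rest on the same 3 benzyl alcohol arrays. The median difference of the 37 genes was -0.18 against heat shock and -0.14 against Lipofectamine, beside -0.03 and 0.04 over all genes.

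**Figure D2:**
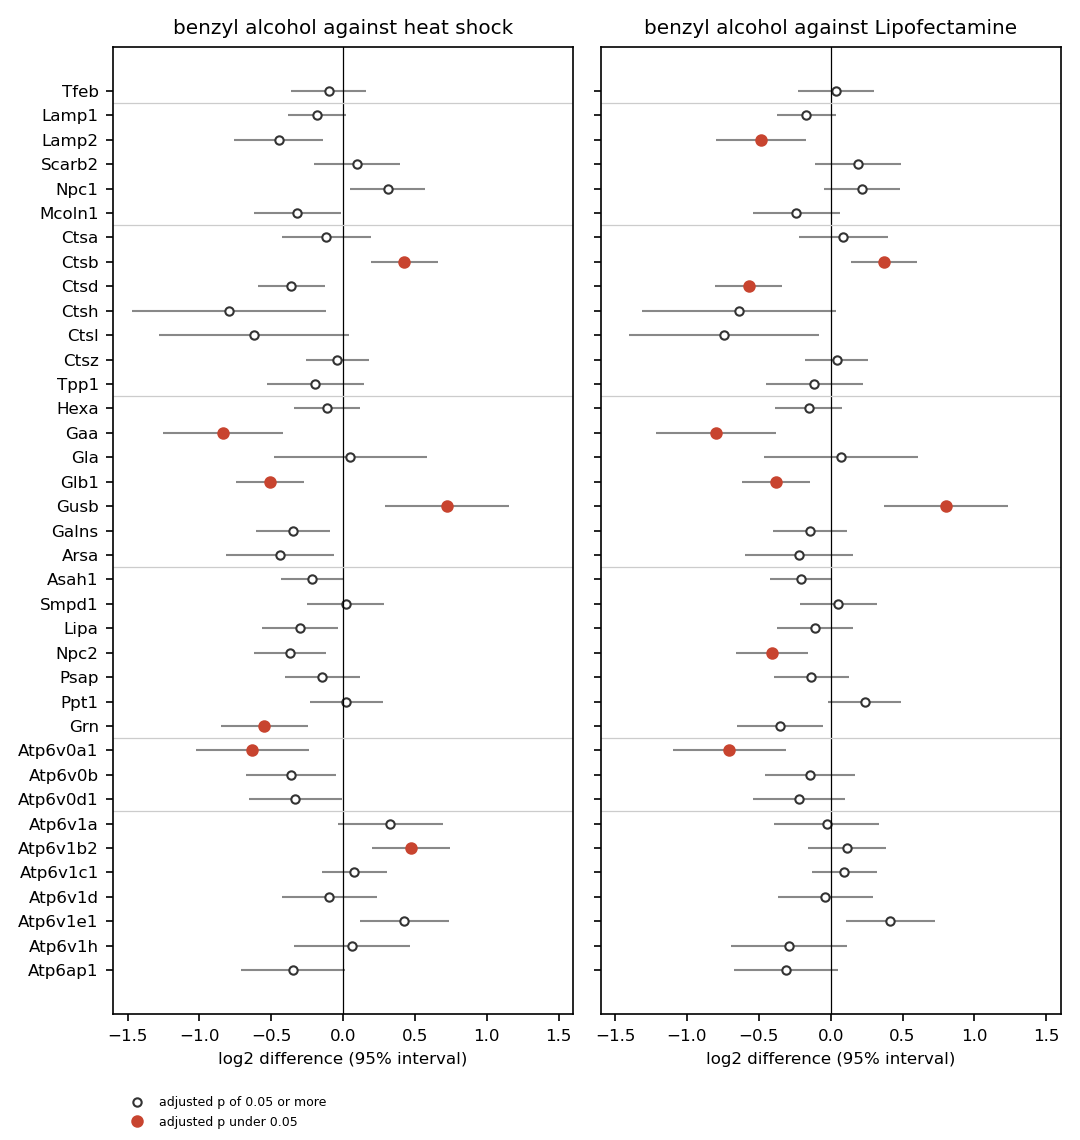
Difference in log2 signal of each of the 37 genes between benzyl alcohol and heat shock (left) and between benzyl alcohol and Lipofectamine (right), with 95% intervals from limma. Filled points passed the test, 7 at the left and 8 at the right, and points left of the line are lower with benzyl alcohol.

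Of the membrane proteins, Lamp2, an abundant glycoprotein of the lysosomal membrane, had 10.69, 11.06 and 10.51 with Lipofectamine and 10.51, 9.98 and 10.32 with benzyl alcohol. The lowest Lipofectamine array and the highest benzyl alcohol array were nearly equal, and Lipofectamine array 2 and benzyl alcohol array 2 were the extremes. The difference was -0.48 (SE 0.147, limma adjusted p = 0.0424), 1.40-fold lower with benzyl alcohol, and from heat shock it was -0.45 (limma adjusted p = 0.0777). Lamp1, Scarb2, which carries glucocerebrosidase to lysosomes, Npc1, which exports cholesterol from them, and the ion channel gene Mcoln1 did not pass in either comparison. Their differences lay between -0.32 and 0.31. Tfeb itself had 8.17 to 8.62 over all 14 arrays, and its differences between benzyl alcohol and the other treatments were -0.10 (95% interval -0.36 to 0.16) and 0.04 (95% interval -0.22 to 0.30).

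Among the proteases, 2 genes differed and did so in opposite directions. Ctsd, the aspartic protease cathepsin D, had 12.43, 12.41 and 12.38 with Lipofectamine and 11.93, 11.80 and 11.77 with benzyl alcohol. The groups, at 12.40 ± 0.03 and 11.83 ± 0.08 (SD, n = 3 each), were narrow and lay apart. The difference was -0.57 (SE 0.110, limma adjusted p = 0.00446), 1.49-fold lower with benzyl alcohol, and against heat shock, with 12.27, 12.09 and 12.21, it was -0.36 (limma adjusted p = 0.0588). The 5 controls lay at 12.26, 11.96, 12.25, 12.03 and 11.93, between these groups.

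Ctsb, the cysteine protease cathepsin B, had 11.55, 11.42 and 11.24 with benzyl alcohol. All 3 were above the 11 arrays of the other groups, with 11.02, 10.87 and 11.05 for heat shock, 11.05, 11.17 and 10.88 for Lipofectamine and 10.98 to 11.20 for the controls. The differences were 0.43 (SE 0.109, limma adjusted p = 0.0322) from heat shock and 0.37 (SE 0.109, limma adjusted p = 0.0372) from Lipofectamine. Against the controls, Ctsb differed by 0.29 (SE 0.0977), with a limma adjusted p of 0.173. Ctsh and Ctsl differed by -0.80 and -0.62 from heat shock and by -0.64 and -0.74 from Lipofectamine without passing. Their benzyl alcohol arrays lay below all arrays of both treatments, and their SE of 0.312 to 0.318 was higher than that of any other of the 37 genes. The serine carboxypeptidase gene Ctsa, Ctsz and the tripeptidyl peptidase gene Tpp1 differed by -0.19 to 0.09.

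Of the 7 glycosidases and sulfatases, Gaa and Glb1 were lower and Gusb was higher with benzyl alcohol. Gaa, the acid alpha-glucosidase that digests glycogen, had 9.29, 8.85 and 9.39 with benzyl alcohol, beside 10.06, 9.95 and 10.02 with heat shock and 9.98, 10.16 and 9.79 with Lipofectamine. The differences of -0.83 (SE 0.196, limma adjusted p = 0.0219) and -0.80 (SE 0.196, limma adjusted p = 0.0156), 1.78-fold and 1.74-fold lower, were the largest differences below 0 among the 37 genes in these comparisons. Control arrays 1 and 3 had 9.94 and 10.06, within the range of the other treatments, and control arrays 2, 4 and 5 had 9.27, 9.39 and 9.41, near benzyl alcohol.

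Glb1, the beta-galactosidase, had 8.15, 7.95 and 8.22 with benzyl alcohol, 8.66, 8.52 and 8.65 with heat shock and 8.53, 8.57 and 8.36 with Lipofectamine. The differences were -0.51 (SE 0.111, limma adjusted p = 0.0161) and -0.38 (SE 0.111, limma adjusted p = 0.0349). The groups did not overlap. Gusb, the beta-glucuronidase, ran the other way, with 10.31, 9.94 and 10.36 with benzyl alcohol, 9.38, 9.58 and 9.49 with heat shock and 9.37, 9.61 and 9.23 with Lipofectamine. It was higher by 0.72 (SE 0.203, limma adjusted p = 0.0440) and 0.80 (SE 0.203, limma adjusted p = 0.0184). Its controls were split in the opposite sense to those of Gaa, at 9.32 and 9.53 in arrays 1 and 3 and at 9.92, 10.21 and 10.18 in arrays 2, 4 and 5. Hexa, Gla and the sulfatase genes Galns and Arsa did not pass, with differences of -0.44 to 0.07.

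Of the 7 genes for lipid breakdown and its helpers, Grn and Npc2 each passed in 1 comparison. Grn, whose product progranulin is cut into granulins in lysosomes, had 11.54, 11.28 and 11.35 with benzyl alcohol and 12.03, 11.92 and 11.85 with heat shock. The difference was -0.55 (SE 0.142, limma adjusted p = 0.0333). From Lipofectamine, with 11.74, 11.83 and 11.66, it was -0.35 (limma adjusted p = 0.126), and the ranges were apart in both comparisons. Npc2, the soluble partner of Npc1 in cholesterol export, had 11.72, 11.69 and 11.57 with benzyl alcohol and 12.00, 12.15 and 12.06 with Lipofectamine, a difference of -0.41 (SE 0.118, limma adjusted p = 0.0357). From heat shock it differed by -0.37 (limma adjusted p = 0.0710). Acid ceramidase (Asah1), acid sphingomyelinase (Smpd1), acid lipase (Lipa), the saposin precursor Psap and the thioesterase gene Ppt1 differed by -0.30 to 0.24 and did not pass. The dimmer probeset of Psap, 1421813_a_at, did pass against Lipofectamine, with -0.43 (limma adjusted p = 0.0471). From heat shock it differed by -0.07 (limma adjusted p = 0.826).

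Of the 10 V-ATPase genes, 1 from each part of the pump passed. Atp6v0a1, the subunit a1 of the V0 part, had 9.86, 9.74 and 9.24 with benzyl alcohol, 10.45, 10.12 and 10.16 with heat shock and 10.24, 10.47 and 10.25 with Lipofectamine. Benzyl alcohol array 3 was the lowest of all 14, and the other 2 were also below every heat shock and Lipofectamine array. The differences were -0.63 (SE 0.185, limma adjusted p = 0.0498) and -0.71 (SE 0.185, limma adjusted p = 0.0215). Against the controls the difference was -0.49 (SE 0.165, limma adjusted p = 0.174), with all 3 benzyl alcohol arrays below the lowest control, array 1 by less than the rounding. The 3 dimmer probesets of this gene did not pass against heat shock, with differences of -0.02, -0.22 and -0.47 (limma adjusted p = 0.979, 0.416 and 0.326). The other V0 genes, Atp6v0b and Atp6v0d1, differed by -0.36 and -0.33 from heat shock and by -0.15 and -0.22 from Lipofectamine, without passing.

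Atp6v1b2, the B2 subunit of the V1 part that helps to bind ATP, had 11.38, 11.16 and 10.99 with benzyl alcohol and 10.66, 10.69 and 10.76 with heat shock. It was higher by 0.47 (SE 0.128, limma adjusted p = 0.0381), and the difference from Lipofectamine was 0.12 (95% interval -0.16 to 0.39). Heat shock was the lowest group, and its highest array lay below the lowest of the controls, at 10.76 to 11.12, by less than the rounding. The difference of heat shock from the controls, -0.26, did not pass. Atp6v1e1, a stalk subunit, came near the threshold in both comparisons, with 0.43 and 0.42 (SE 0.146 each) and limma adjusted p of 0.0907 and 0.0783. Atp6v1a, Atp6v1c1, Atp6v1d, Atp6v1h and the accessory subunit gene Atp6ap1 differed by -0.35 to 0.33.

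**Figure D3:**
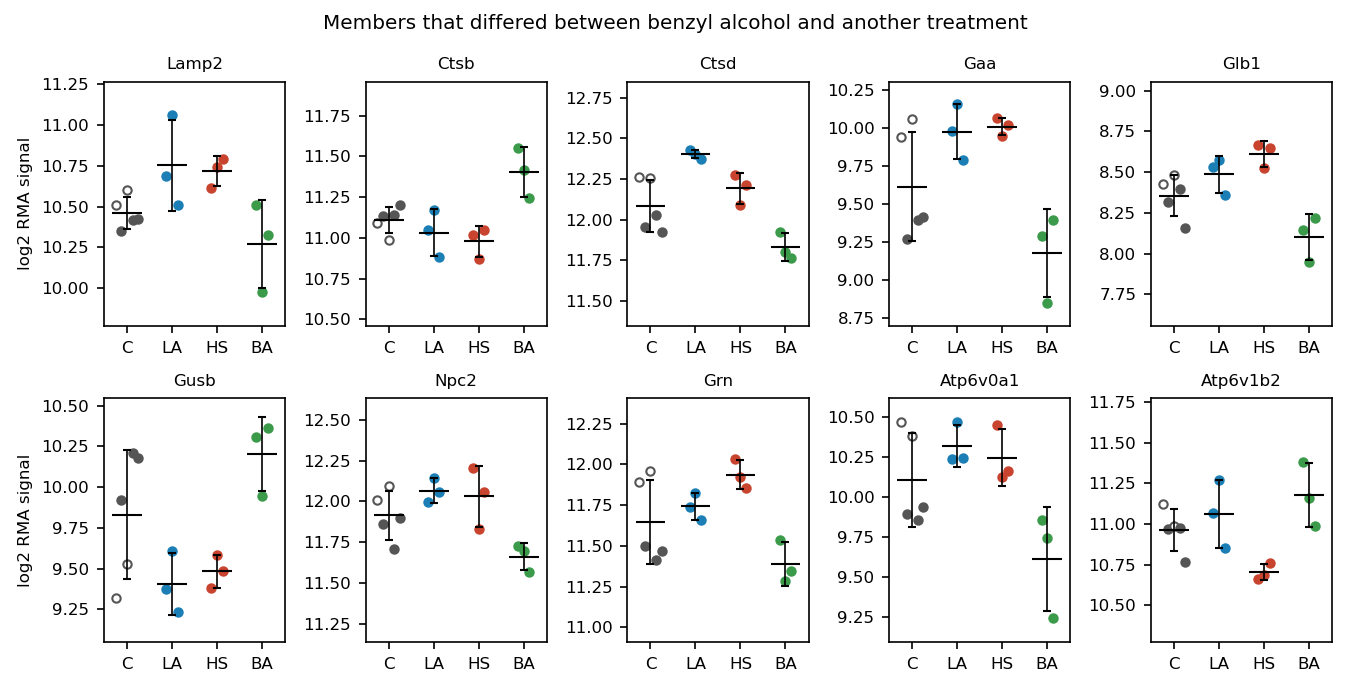
Log2 RMA signal in each array (points) with group mean and SD (lines) for the 10 genes that passed between benzyl alcohol and another treatment, in the controls (C, n = 5), with Lipofectamine (LA, n = 3), heat shock (HS, n = 3) and benzyl alcohol (BA, n = 3), where open points are control arrays 1 and 3. Each panel has an axis of its own that does not start at 0. The open points lie above the filled controls at Lamp2, Ctsd, Gaa, Glb1, Npc2, Grn, Atp6v0a1 and Atp6v1b2, and below them at Ctsb and Gusb. Control arrays 1 and 3 lay apart from the other controls in this way at 40.4% of all genes.

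Many of these genes no longer passed with 1 array left out. Against heat shock, 0 of the 37 genes passed without heat shock array 1, heat shock array 3 or benzyl alcohol array 1, 1 without heat shock array 2 or benzyl alcohol array 2, 3 without Lipofectamine array 1 and 4 without benzyl alcohol array 3. Against Lipofectamine, 1 passed without Lipofectamine array 1, 3 without Lipofectamine array 2 or benzyl alcohol array 2, 4 without heat shock array 3, benzyl alcohol array 1 or benzyl alcohol array 3, and 5 without Lipofectamine array 3. No difference changed sign. Fewer probesets of the whole array passed in these fits too, from 1.00% to 4.91% of 22626 against heat shock in place of 7.22%, and from 5.66% to 10.0% against Lipofectamine in place of 11.9%. Ctsd against Lipofectamine passed in all 25 alternative settings, with differences of -0.62 to -0.54 and limma adjusted p of at most 0.0241. Gaa and Atp6v0a1 against Lipofectamine were lost in 3 of 25 each. Those lost most often were Atp6v0a1 against heat shock in 12 of 25, Lamp2 against Lipofectamine in 11, Gusb against heat shock in 10 and Npc2 against Lipofectamine in 9. Control arrays enter these comparisons only through the shared variance. With control arrays 1 and 3 left out, 17 genes passed against heat shock, which is 45.9%, beside 15.5% of all probesets. With control arrays 2, 4 and 5 left out 15 did, which is 40.5%, beside 13.9%.

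Other probesets of the same genes were set beside these values. The 37 genes have 35 further probesets, of which 12 belong to the genes that passed against heat shock and 12 to those that passed against Lipofectamine. Of these 5 and 8 passed too, beside 7.22% and 11.9% of all probesets, though they were picked because the brightest probeset of their gene had passed. Ctsb had 3 others. From heat shock, 1417492_at and 1448732_at differed by 0.77 and 0.61 (limma adjusted p = 0.0244 and 0.0493). Probeset 1417491_at differed by 0.39 (limma adjusted p = 0.0530). From Lipofectamine, 1417492_at and 1417491_at differed by 0.68 and 0.41 (limma adjusted p = 0.0265 and 0.0307). These were dim, each with a mean signal below every array median. The brightest of the 3, 1448732_at, differed from Lipofectamine by only 0.13 and did not pass (limma adjusted p = 0.725). The other probeset of Gaa differed by -0.89 and -0.70 (limma adjusted p = 0.0161 and 0.0282) from heat shock and Lipofectamine, and that of Npc2 by -0.50 and -0.54 (limma adjusted p = 0.0215 and 0.00843). Both directions were those of the brighter probesets. For the other probeset of Gusb the differences were 0.83 and 0.48, but the limma adjusted p was 0.0675 and 0.279.

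Lamp2 and Atp6v0a1 have 4 probesets each. Between benzyl alcohol and Lipofectamine, 2 of the 3 dimmer ones of each gene differed more than the brightest and 1 less, 1434503_s_at of Lamp2 with -0.38 (limma adjusted p = 0.0638) and 1459924_at of Atp6v0a1 with -0.16 (limma adjusted p = 0.567). Probeset 1416343_a_at of Lamp2 had 8.74, 8.91 and 8.17 with Lipofectamine, 7.85, 7.04, 7.55, 7.47 and 7.72 in the controls, 7.11, 7.73 and 7.54 with heat shock and 7.62, 6.50 and 7.06 with benzyl alcohol. The Lipofectamine arrays lay above all 11 others. It rose by 1.08 (SE 0.201, limma adjusted p = 0.00951) with Lipofectamine against the controls, while the brightest probeset differed by 0.29 (SE 0.118, limma adjusted p = 0.191). Against heat shock the Lipofectamine value was higher by 1.15 (limma adjusted p = 0.0101), and benzyl alcohol was lower than Lipofectamine by a difference of -1.55 (limma adjusted p = 0.00240).

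Probeset 1460650_at of Atp6v0a1 had 8.17, 8.20 and 8.14 with Lipofectamine, 6.76, 7.01 and 7.17 with heat shock and 6.91, 6.83 and 5.78 with benzyl alcohol, and its controls lay at 7.15 to 8.16. It fell by 1.09 (SE 0.236, limma adjusted p = 0.0294) with benzyl alcohol against the controls. Lipofectamine exceeded heat shock by 1.19 (limma adjusted p = 0.00491), and benzyl alcohol differed from Lipofectamine by -1.66 (limma adjusted p = 0.00155). Probeset 1425227_a_at of the same gene gave 1.37 (limma adjusted p = 0.00527) and -1.38 (limma adjusted p = 0.00190) for these comparisons. Between Lipofectamine and heat shock the brightest probeset of Atp6v0a1 differed by 0.07 (limma adjusted p = 0.841), so that the probesets of 1 gene disagreed there. The files do not say which transcript each probeset reads, and no transcript form was assigned.

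**Figure D4:**
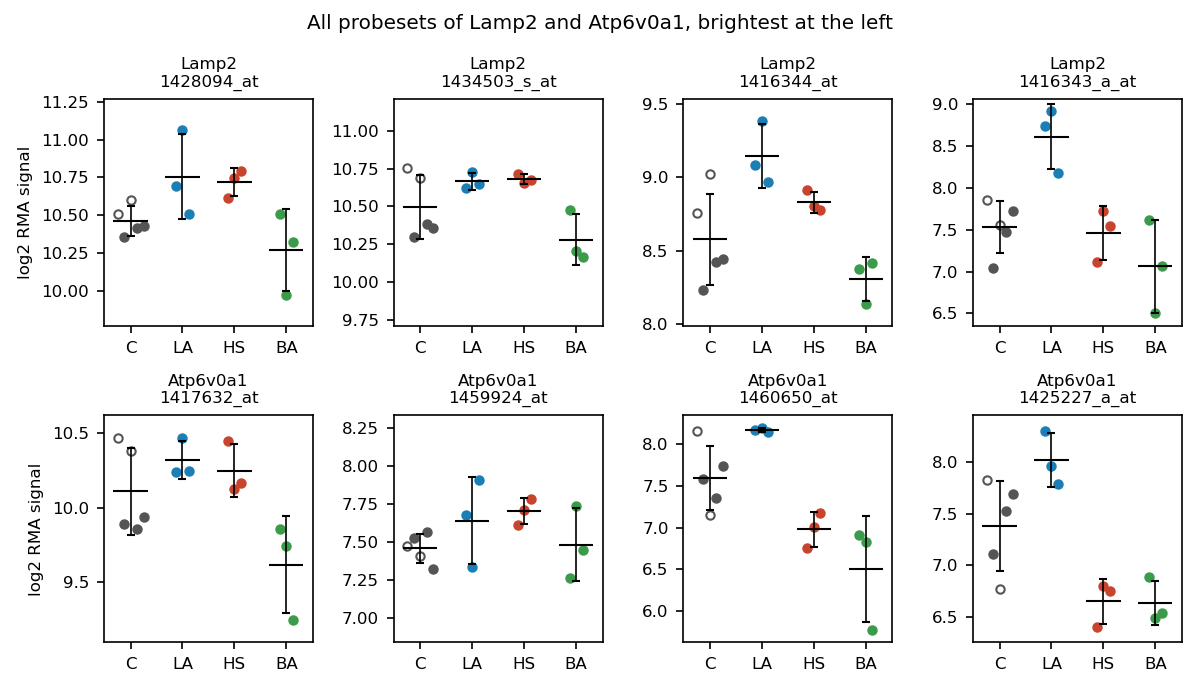
Log2 RMA signal in each array (points) with group mean and SD (lines) for all 4 probesets of Lamp2 (top) and of Atp6v0a1 (bottom), brightest at the left, in the groups C (n = 5), LA, HS and BA (n = 3 each), where open points are control arrays 1 and 3 and each panel has its own axis. Lipofectamine is the highest group in the right-hand panels of both genes, while in the left-hand panels the Lipofectamine and heat shock means are close.

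Between Lipofectamine and heat shock, 5 of the 35 further probesets passed although none of the brightest did, beside 5.72% of all probesets. Beside the 3 above, these were 1419883_s_at of Atp6v1b2 with 0.71 (limma adjusted p = 0.0142) and 1419544_at of Atp6v1c1, the V1 subunit C1, with 0.49 (limma adjusted p = 0.0290), both higher with Lipofectamine. With heat shock against the controls, 1420038_at of Atp6v1e1 rose by 0.41 (limma adjusted p = 0.0414), while the brightest probeset of that gene differed by -0.22.

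The promoters of the genes that differed were read for the sequences bound by TFEB factors. RefSeq promoters of the mouse build GRCm38.p6, from 250 bases before to 50 after each start, were matched for 33 of the 41 genes, of which 29 were read. On both strands, the E-box CACGTG is in the promoters of 12 of these 29 genes, which is 41.4%, beside 8.09% of all genes with a promoter. Its longer palindrome TCACGTGA, the centre of the element described for TFEB targets, is in 6, which is 20.7%, beside 1.12%, and every match of it is also a match of CACGTG. The list was chosen by name for lysosomal genes and TFEB factors, and these shares describe that list without a test. Of the 8 differing genes with a promoter, 3 hold CACGTG, which is 37.5%, beside the 41.4% of the 29 genes. They are Ctsd at positions -245 and -98 from the start, Gaa at -140 and Glb1 at -48. Gusb, Grn, Lamp2, Npc2 and Atp6v0a1 hold none in this window. Pairs of heat shock element units, GAANNTTC and TTCNNGAA, are in 1 and 3 of the 29 genes, which is 3.45% and 10.3%, beside 9.04% and 9.60%.

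The 250 bases before the start are shown for 3 genes that hold the E-box and were lower with benzyl alcohol, and for Gusb, which was higher, and Atp6v0a1, which was lower, without it. They were chosen after the values were seen. Each runs 5′ to 3′ towards the start, with the E-box in capitals.
Ctsd, chr7:142387828-142388077, minus strand: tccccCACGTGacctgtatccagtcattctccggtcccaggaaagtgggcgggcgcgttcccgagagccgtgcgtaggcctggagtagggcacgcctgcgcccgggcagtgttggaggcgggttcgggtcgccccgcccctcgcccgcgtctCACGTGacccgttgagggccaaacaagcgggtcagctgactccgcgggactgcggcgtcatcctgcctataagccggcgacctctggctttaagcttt
Gaa, chr11:119267713-119267962, plus strand: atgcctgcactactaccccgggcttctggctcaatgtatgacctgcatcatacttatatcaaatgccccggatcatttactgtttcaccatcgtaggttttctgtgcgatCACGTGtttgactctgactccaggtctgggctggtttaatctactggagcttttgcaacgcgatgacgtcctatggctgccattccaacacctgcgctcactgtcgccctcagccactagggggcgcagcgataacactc
Glb1, chr9:114400828-114401077, plus strand: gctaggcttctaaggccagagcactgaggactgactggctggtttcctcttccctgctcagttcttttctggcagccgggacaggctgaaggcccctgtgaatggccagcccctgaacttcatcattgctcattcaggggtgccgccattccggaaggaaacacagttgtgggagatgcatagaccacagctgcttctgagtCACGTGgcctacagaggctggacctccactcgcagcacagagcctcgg
Gusb, chr5:130003050-130003299, minus strand: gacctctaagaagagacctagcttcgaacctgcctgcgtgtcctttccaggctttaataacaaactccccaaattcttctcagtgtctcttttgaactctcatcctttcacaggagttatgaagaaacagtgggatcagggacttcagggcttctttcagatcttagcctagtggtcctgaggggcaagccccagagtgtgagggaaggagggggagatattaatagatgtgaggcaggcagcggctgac
Atp6v0a1, chr11:101010148-101010397, plus strand: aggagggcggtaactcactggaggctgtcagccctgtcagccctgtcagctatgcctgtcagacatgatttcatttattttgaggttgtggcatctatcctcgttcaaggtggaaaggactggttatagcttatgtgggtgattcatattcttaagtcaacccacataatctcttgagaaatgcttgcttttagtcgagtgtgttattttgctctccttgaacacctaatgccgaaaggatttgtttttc

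A match is a run of letters and says nothing of what binds there, and genes without a match can be read from other starts.

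Since the control arrays were split on these genes, the comparisons with the controls were also made with each set of controls left out. The sets were formed after the signals were seen and no label sets them apart. Leaving one set out narrows the spread of the controls and fixes the side on which the rest lie, so that the counts describe how these comparisons depend on the controls and are not independent evidence. Without control arrays 1 and 3, 10 of the 37 genes passed with Lipofectamine, which is 27.0%, beside 18.9% of all genes, and 15 with heat shock, which is 40.5%, beside 20.6%. With Lipofectamine 7 were higher, beside 8.09% of all genes, and 3 lower, beside 10.9%. With heat shock 13 were higher, beside 7.89% of all genes, and 2 lower, beside 12.7%. With benzyl alcohol 2 passed, Gla with 0.77 and Atp6v1h with 0.58, beside 2.65% of all genes.

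Against these 3 controls Ctsh differed by 1.01 with Lipofectamine and 1.18 with heat shock, and Ctsl, the cysteine protease cathepsin L, by 0.93 and 0.81. Gla differed by 0.70 and 0.72, Gaa by 0.62 and 0.65, Atp6v1h by 0.87 and 0.51 and Atp6v0a1 by 0.42 and 0.35. Gusb differed by -0.70 and -0.62 and Atp6v1e1 by -0.39 and -0.40. These 8 genes passed with both treatments, which share the 3 controls. Ctsd (0.43) and Scarb2 (-0.36) passed with Lipofectamine, and Atp6v0b, Grn, Arsa, Tpp1, Lipa, Atp6v0d1 and Glb1, at 0.32 to 0.52, with heat shock.

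Without control arrays 2, 4 and 5, 0 of the 37 genes passed with Lipofectamine, beside 4.77% of all genes, and 0 with heat shock, beside 3.56%, while 10 passed with benzyl alcohol, which is 27.0%, beside 13.4%. Of these 8 were lower, beside 8.31% of all genes, and 2 higher, beside 5.13%. Ctsl differed by -1.07, Ctsh by -0.93, Gaa by -0.82, Atp6v0a1 by -0.81, Arsa by -0.61, Grn by -0.54, Atp6v0d1 by -0.50 and Ctsd by -0.42, and Gusb differed by 0.78 and Atp6v1e1 by 0.47. Which genes passed against untreated cells thus followed the control arrays used, while the comparisons between treatments involve the controls only through the shared variance. The median difference of the 37 genes went from 0.19 to -0.04 with Lipofectamine, from 0.21 to -0.06 with heat shock and from -0.01 to -0.22 with benzyl alcohol between the first set of controls and the second.

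**Figure D5:**
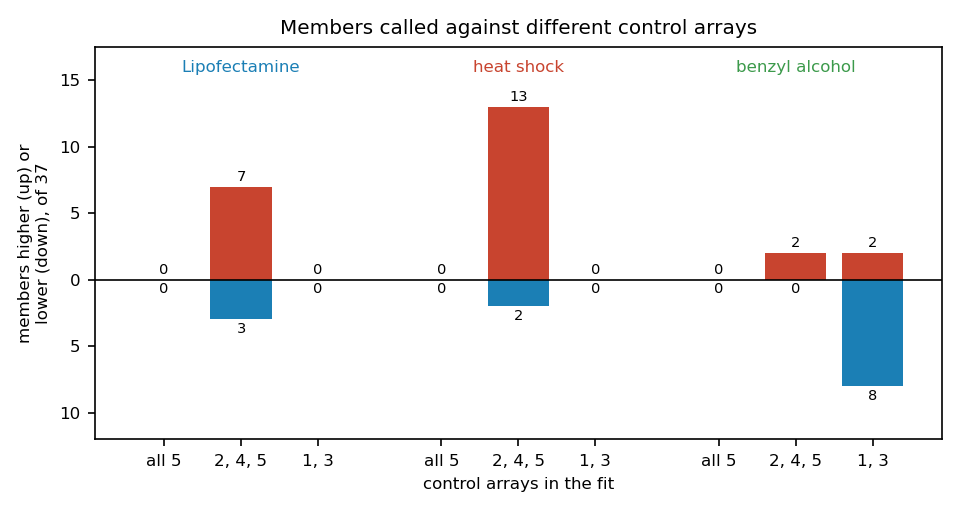
Number of the 37 genes that passed as higher (bars above 0) or lower (bars below 0) with each treatment against all 5 control arrays, control arrays 2, 4 and 5, or control arrays 1 and 3. Lipofectamine and heat shock show 10 and 15 genes with control arrays 2, 4 and 5 alone, and benzyl alcohol shows 10 with control arrays 1 and 3 alone.

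A wider list of 112 lysosomal, autophagy and TFEB pathway genes, of which 91 were read, was tested in the same fits. Against all 5 controls 2, 1 and 2 of the 91 passed with Lipofectamine, heat shock and benzyl alcohol, which is 2.20%, 1.10% and 2.20%, beside 5.02%, 5.04% and 1.42% of all genes. With Lipofectamine 2 rose, the autophagy kinase gene Ulk1 by 0.55 (SE 0.113, limma adjusted p = 0.0150) and the ion channel gene Mcoln2 by 0.84 (SE 0.193, limma adjusted p = 0.0254). With heat shock 1 fell, Uvrag, which acts in autophagosome formation, by 0.41 (SE 0.0963, limma adjusted p = 0.0275). With benzyl alcohol 2 rose, Cd68, a lysosomal membrane glycoprotein of macrophages and other cells, by 0.90 (SE 0.139, limma adjusted p = 0.00374) and the membrane protein gene Laptm4b by 0.42 (SE 0.0851, limma adjusted p = 0.0214). Cd68 was dim, at 5.16 to 6.47 over all arrays and below every array median, and detection calls were not used. The other 10 V-ATPase subunit genes that were read passed in 0 of the 6 comparisons.

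Between treatments, 6 of the 91 passed for Lipofectamine against heat shock, all higher with Lipofectamine, 4 for benzyl alcohol against heat shock, 2 in each direction, and 18 for benzyl alcohol against Lipofectamine, 5 higher and 13 lower. These are 6.59%, 4.40% and 19.8%, beside 4.18%, 7.39% and 11.9% of all genes. Against Lipofectamine the autophagy genes gave 5 of 17, all lower, where 4.82% of all genes were lower, among them the cargo receptor gene Sqstm1 with -1.07 (SE 0.307, limma adjusted p = 0.0331). Other lysosomal hydrolases gave 1 higher, Ifi30, and 4 lower of 26, where 7.12% of all genes were higher and 4.82% lower, among them the sialidase gene Neu1 with -0.77 (limma adjusted p = 0.0485). Other lysosomal membrane and transport genes went both ways, with 3 higher and 3 lower of 15 and differences from -1.25 to 0.71. Genes of the TFEB family and of mTORC1 at the lysosome gave 1 higher and 1 lower of 13. Mitf, the TFEB relative of pigment cells, was higher with benzyl alcohol by 1.76 (SE 0.449, limma adjusted p = 0.0313) than with heat shock and by 1.72 (SE 0.449, limma adjusted p = 0.0212) than with Lipofectamine. Against the controls Mitf did not pass, with -1.41 (SE 0.409, limma adjusted p = 0.0671) with Lipofectamine, -1.46 (SE 0.409, limma adjusted p = 0.0528) with heat shock and 0.31 (SE 0.401, limma adjusted p = 0.825) with benzyl alcohol. Mitf was the only 1 of the 9 pigment cell markers, and Cd68 the only 1 of the 9 macrophage markers, to pass between benzyl alcohol and the other treatments, where 9 and 6 of the pigment cell markers lay above 0 against heat shock and Lipofectamine. Over the whole macrophage list the mean per array was 6.12 to 6.28 with benzyl alcohol, 6.19 to 6.25 with heat shock and 5.85 to 6.26 with Lipofectamine, and the part of either marker list was not tested.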

How the data were processed

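RNA of B16-F10 cells was hybridised to 14 Affymetrix mouse expression arrays in 4 groups. Scanned images were read by the authors with GCOS 1.2 and summarised by RMA, and the deposited values are log2 signals. The version of RMA and which arrays were processed together are not given in the sources used here.

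The values were analysed with limma 3.58.1 in R 4.3.3 (lmFit, eBayes), without a filter on signal. The 64 Affymetrix control probesets were left out. Of the 22626 tested, 20380 carry 1 gene symbol, 691 several and 1555 none, and genes were named from the first kind alone. Control, Lipofectamine and heat shock were fitted together (11 arrays), and comparisons with benzyl alcohol used all 14 arrays. Benjamini-Hochberg adjustment ran over all probesets, with a threshold of 0.05. The code for these fits was first tested on simulated data. Shares of all genes count the brightest probeset of each of 12393 genes.

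Genes that passed in any of the 6 comparisons are described with every array, the others by ranges, with the 2 largest differences that did not pass against the controls. Of the wider list up to 4 that passed per comparison with the controls are named, and those named between treatments were chosen after their values were seen. The members and lists were chosen with earlier results of these data known. The study's own threshold, a random-variance F-test p under 0.001, was an alternative in limma, beside other arrays in the fit, a variance trend, array weights, filters on dim or cross-hybridising probesets, renewed normalization, a mean over each gene's probesets, a block for the replicate number and leaving out arrays. The number of arrays limits the precision. Replicate numbers are shared between groups, but no label says that they pair the samples, and the main fits did not pair them. Over 18 pairs of same-numbered arrays the correlation of deviations from the group means ran from -0.56 to 0.44, with 3 above 0.1. Deviations from a mean of so few arrays depend on each other, so that these values neither show nor exclude a pairing. Promoters are those of RefSeq, GRCm38.p6.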

Additional observations from a re-analysis of the deposited data

How the results depend on the processing

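None of the differences that passed changed sign in the 25 alternatives, and detection calls were not used, so that a dim signal cannot be told from background. The counts of members that passed depended on a few settings, and apart from the construction of the fits the cause was not tested. Array weights gave 12 with Lipofectamine and 12 with heat shock against the controls in place of 0, 11 in place of 0 between these treatments, and 16 and 18 in place of 7 and 8 for benzyl alcohol against heat shock and Lipofectamine. These are 32.4%, 32.4%, 29.7%, 43.2% and 48.6% of the 37, beside 36.7%, 26.0%, 48.7%, 19.0% and 39.0% of all probesets, which passed more often with array weights as well. Quantile normalization again gave 1 with Lipofectamine and 2 with heat shock against the controls, beside 5.38% and 5.5% of all probesets. The mean of a gene's probesets gave 1 with Lipofectamine and 1 with benzyl alcohol against the controls and 1 between Lipofectamine and heat shock. Of all genes, 4.99%, 1.77% and 4.16% passed in these fits. Without probesets named _x_at or _s_at, 1 passed with heat shock against the controls, beside 6.25% of the probesets kept. Fits of the 2 groups compared gave 1 between Lipofectamine and heat shock and 16 for benzyl alcohol against heat shock, beside 12.8% and 14.7% of all probesets.

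Leaving out control arrays 1 and 3 gave 10, 15 and 2 with Lipofectamine, heat shock and benzyl alcohol against the controls, 1 between Lipofectamine and heat shock and 17 for benzyl alcohol against heat shock. Of all probesets, 18.8%, 21.8%, 3.03%, 13.6% and 15.5% passed in these fits. Leaving out control arrays 2, 4 and 5 gave 10 with benzyl alcohol against the controls, 1 between Lipofectamine and heat shock and 15 for benzyl alcohol against heat shock. Here 12.5%, 11.6% and 13.9% of all probesets passed. With each array left out in turn, the counts ran from 0 to 3 with Lipofectamine (3 without control array 1, 2 without control array 3), from 0 to 5 with heat shock (5 without control array 3) and stayed at 0 with benzyl alcohol. In the fits that gave 3, 2 and 5 genes, 10%, 7.39% and 11.7% of all probesets passed. Between Lipofectamine and heat shock the counts ran from 0 to 1 (1 without Lipofectamine array 3, beside 7% of all probesets). For benzyl alcohol they ran from 0 to 9 against heat shock and from 1 to 10 against Lipofectamine. Here 1.00% to 10.2% and 5.66% to 14.1% of all probesets passed. With the replicate number as a block, 4 in place of 8 passed for benzyl alcohol against Lipofectamine, 7 against heat shock and 0 in the other comparisons. For benzyl alcohol against Lipofectamine and heat shock, 11.5% and 8.2% of all probesets passed with this block. In 6 of the 18 same-numbered pairs, the array of the same number was the best match among those numbered 1 to 3 in the other group. The remaining alternatives left each count within 1.5 times its value.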
